A study of Homo sapiens with 8 samples.

Results

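The 10 genes described here encode secreted signals that recruit or expand neutrophils and related myeloid cells: the CXC chemokines CXCL1, CXCL2, CXCL3, CXCL5, CXCL6 and CXCL8, the CC chemokine CCL20, the colony-stimulating factors CSF2 and CSF3, and the cytokine IL6. They were chosen by name, and each of the 10 names matched 1 gene among the 58735 genes of the raw count table. RNA was sequenced from EPC2-hTERT cells, human esophageal epithelial cells immortalised with telomerase. The tested libraries (miR-155OE, n = 4) came from a stable line made with a lentivirus that overexpresses miR-155-5p, and the control libraries (CTRL, n = 4) from the same cell line without further description of what the control cells carry. Both groups were seeded on porous inserts (pore size 0.4 µm), kept for 2 days, switched to 1.8 mM calcium for 5 more days and lifted to an interface with air. The medium of both groups held bovine pituitary extract and epidermal growth factor, and no inflammatory stimulus is named. The libraries of each group are numbered 1 to 4 without a statement that they were separate cultures, so p-values measure the spread between these libraries, which may be technical.

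CXC chemokines with a Glu-Leu-Arg motif before their first cysteines bind the receptor CXCR2 on neutrophils, and CXCL6 and CXCL8 bind CXCR1 as well. CCL20 acts through CCR6 on dendritic cells and on T helper cells that make IL-17. CSF3 (G-CSF) drives neutrophil production and CSF2 (GM-CSF) the growth and survival of neutrophils, eosinophils and macrophages, while IL6 acts through IL6R and the shared signalling chain IL6ST. In epithelia such genes are induced by IL-1, TNF and IL-17 family cytokines through NF-kB, and their mRNAs are short-lived because proteins that bind AU-rich elements or stem-loops in the 3′ UTR mark them for decay.

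The 6 CXC chemokine genes lie within 359 kb of chromosome 4 and share a promoter element. Their promoters are shown because the same kappa B core, the kind of sequence that NF-kB binds, stands close to the start of each. Each line gives 37 bases 5′ to 3′ on the gene's strand, with the core in capitals.
CXCL1: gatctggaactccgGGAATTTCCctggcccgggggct
CXCL2: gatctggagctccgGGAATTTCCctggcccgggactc
CXCL3: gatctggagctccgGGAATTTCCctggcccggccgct
CXCL5: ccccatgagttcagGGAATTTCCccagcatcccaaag
CXCL6: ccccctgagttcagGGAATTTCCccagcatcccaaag
CXCL8: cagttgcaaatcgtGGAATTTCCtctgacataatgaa
On GRCh38.p14 these are chr4:73869301-73869337 (plus strand) for CXCL1, chr4:74099250-74099286 (minus) for CXCL2, chr4:74038745-74038781 (minus) for CXCL3, chr4:73998745-73998781 (minus) for CXCL5, chr4:73836575-73836611 (plus) for CXCL6 and chr4:73740464-73740500 (plus) for CXCL8. The core starts 77 or 78 bases before the RefSeq start of CXCL1, CXCL2 and CXCL3, and 89, 90 and 91 bases before those of CXCL6, CXCL5 and CXCL8. The deposited gene coordinates, given further below, begin upstream of the RefSeq starts for CXCL2, CXCL3, CXCL5, CXCL6 and CXCL8. By those coordinates the core lies within the gene for CXCL2, CXCL3, CXCL5 and CXCL6, and still before it for CXCL8. The CXCL1, CXCL2 and CXCL3 stretches resemble each other beyond the core, as do those of CXCL5 and CXCL6.

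RefSeq promoters, 250 bases before to 50 after the start, were matched for 9 of the 10 genes, all but CSF3. GGAATTTCC, searched on both strands, was in the 6 CXC chemokine promoters and in 162 of all 35116 promoters (0.461%). TGANTCA, the core bound by AP-1 factors, was in the CXCL8 promoter (7.71% of all). TTGCNNAA, a C/EBP core, was in those of CXCL2 and IL6 (10.5% of all). TATAAA was in those of CXCL8 and CCL20 (11.5% of all). No pair of these motifs overlaps in these windows, and a match describes the letters, not binding.

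The overexpressed microRNA is shown for its seed, bases 2 to 8 in capitals, which pairs with target mRNAs (RefSeq, GRCh38.p14, chr21:25573983-25574006, plus strand).
hsa-miR-155-5p: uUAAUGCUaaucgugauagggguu
The heptamers complementary to it, AGCATTA and GCATTAA, were in the longest annotated 3′ UTR of 0 of the 10 genes. At least 1 of them was in the 3′ UTR of 17.6% of 12512 tested genes, whose median UTR length was 1380 bases. The UTRs of the 10 genes were 318 to 1995 bases long. The 10 genes therefore offer no annotated seed match of this kind, which says nothing of other kinds of site. MIR155HG, the host gene of miR-155, and MIR155 itself had 0 reads in all 8 libraries, so these libraries hold no direct check of the overexpression.

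All 10 of these 3′ UTRs were rich in the pentamer ATTTA, the unit of AU-rich decay elements. CSF2 had 25.2 per kb, IL6 13.99, CXCL2 13.9, CXCL3 10.4 and CSF3 8.20. CXCL8 had 7.19, CXCL1 7.08, CCL20 6.24, CXCL5 5.51 and CXCL6 5.36. Each of these is above the 90th percentile of tested genes, 4.57 per kb, where the median was 1.66. The longer element TATTTAT was in 9 of the 10, all but CXCL6, and in 35.6% of tested genes.

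**Figure D1:**
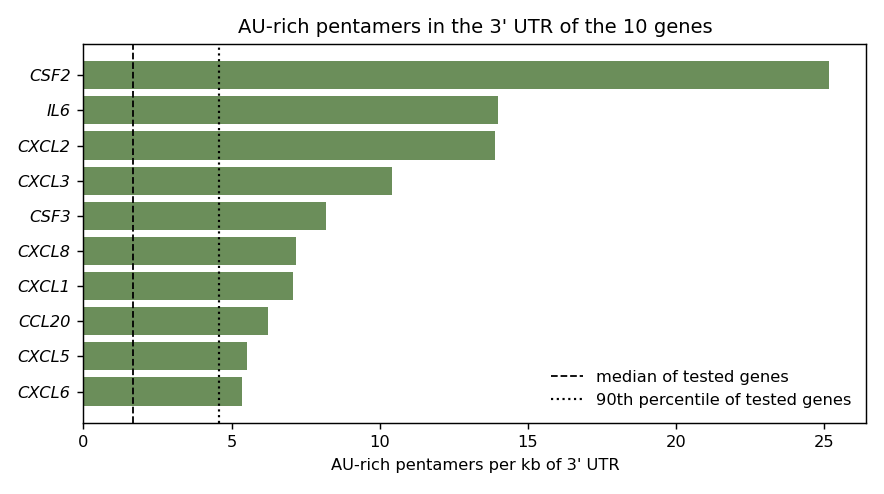
AU-rich pentamers per kb of the longest annotated 3′ UTR of each of the 10 genes (bars), with the median (dashed line, 1.66) and the 90th percentile (dotted line, 4.57) of 12512 tested genes. All 10 bars pass the dotted line, and CSF2 has the longest bar at 25.2 per kb.

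Total counts were 33.4 to 40.6 M (mega) reads in the miR-155OE libraries and 34.1 to 52.7 M in the CTRL libraries, and 15135 genes had enough reads to be tested. Of the 10 genes, 5 were tested (CXCL1, CXCL2, CXCL3, CXCL8 and CSF3), CCL20 and CSF2 had reads in some or all libraries but too few, and CXCL5, CXCL6 and IL6 had 0 reads in all 8. Keratins of squamous epithelium, the labelled cell type, differed widely in level. KRT5 was abundant, at 9621 ± 1362 CPM in miR-155OE and 10934 ± 1042 CPM in CTRL (SD, n = 4 each). The mucosal keratins were far lower: KRT4 averaged 17.3 ± 20.8 CPM in miR-155OE and 95.4 ± 29.2 CPM in CTRL. KRT13 averaged 2.96 ± 3.58 CPM in miR-155OE and 11.4 ± 6.32 CPM in CTRL. Of the 10 leukocyte markers 4 had enough reads to be tested: CD14 had 3169 reads over all 8 libraries, ITGAM 175, FCGR3B 129 and CSF1R 116. The pan-leukocyte marker PTPRC and MPO had 1 read each, CD3E 4, CD68 68 and ELANE 0. In bulk RNA, fewer cells making a transcript and less transcript per cell cannot be told apart.

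The expressed chemokines were low. Reads per mega reads of scaled library size (CPM), per kb of the deposited gene length, averaged over the 8 libraries, were 1.97 for CXCL2, 1.65 for CXCL1, 0.666 for CXCL8 and 0.330 for CXCL3. They were 0.155 for CCL20, 0.140 for CSF3 and 0.113 for CSF2. Values per kb, and the percentiles and shares built on them, depend on the length used. The deposited length was 2219 bases for CXCL3 and 1594 for CCL20, where their longest transcripts have 1075 and 839. For CXCL8 it was 2274 against 1705, and for CSF2 787 against 787. Among the 15135 tested genes on this scale, CXCL2 stood at percentile 42.6, CXCL1 at 39.3, CXCL8 at 24.4, CXCL3 at 14.9, CCL20 at 7.37, CSF3 at 6.46 and CSF2 at 4.76. CXCL2 and CXCL1, neighbours in this order, did not differ beyond their spread: per kb, CXCL2 had 2.30 ± 0.939 CPM and CXCL1 1.86 ± 0.478 CPM in miR-155OE, and CXCL2 had 1.63 ± 0.505 CPM and CXCL1 1.44 ± 0.1995 CPM in CTRL (SD, n = 4 each). CXCL8 lay apart from CXCL1, at 0.657 ± 0.293 CPM per kb in miR-155OE and 0.675 ± 0.325 CPM per kb in CTRL. The order among CCL20, CSF3 and CSF2 was within their spread.

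The CXC chemokine signal came from 4 of the 6 genes. Summed over the 6, it was 8.20 ± 2.49 CPM in miR-155OE and 6.47 ± 1.25 CPM in CTRL (SD, n = 4 each), with ranges of 6.28 to 11.6 and 5.27 to 7.56 that overlap. Of the sum per kb, CXCL2 made up 43.3 ± 7.06% in miR-155OE and 39.9 ± 5.85% in CTRL, and CXCL1 36.6 ± 7.89% in miR-155OE and 36.9 ± 9.27% in CTRL. CXCL8, which binds both neutrophil receptors CXCR1 and CXCR2, made up 12.7 ± 4.86% in miR-155OE and 16.2 ± 5.91% in CTRL.

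**Figure D2:**
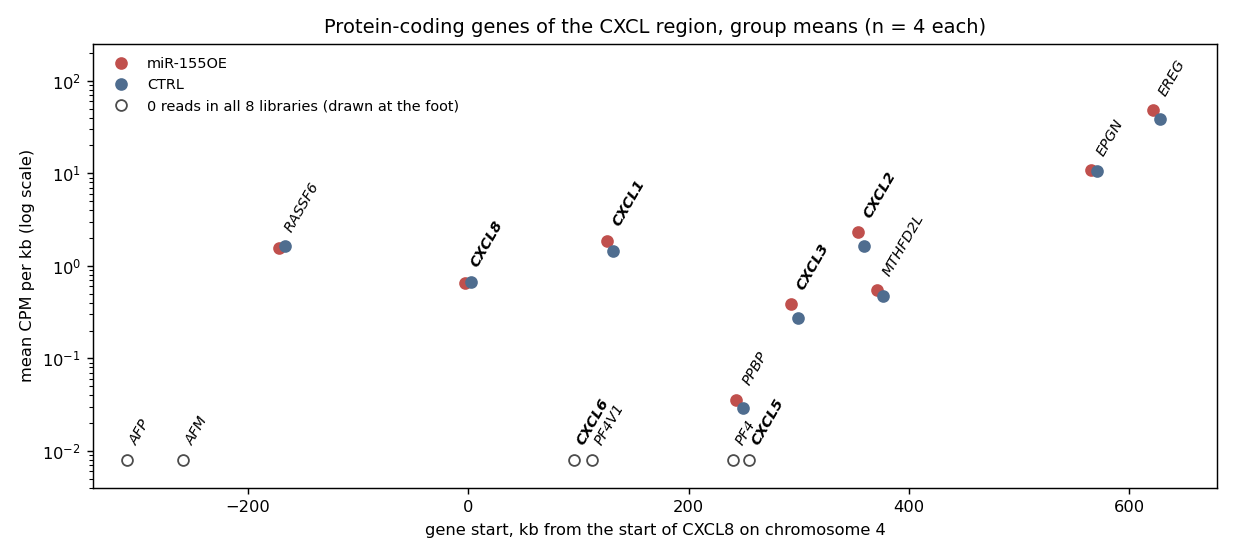
Mean CPM per kb (log axis) of the protein-coding genes of the CXCL region against the distance of their start from that of CXCL8, in kb, for miR-155OE and CTRL (n = 4 each). Members are in bold. CXCL6 and CXCL5, which had no reads, are open circles at the foot, as are PF4 and PF4V1, and these lie between CXCL8 and CXCL2.

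CXCL5 (ENSG00000163735, chr4:73995642-73998779, minus strand) and CXCL6 (ENSG00000124875, chr4:73836497-73849064, plus strand), a pair of close relatives that attract neutrophils, had no read in any library. Nor had IL6 (ENSG00000136244, chr7:22725884-22732002, plus strand). A count of 0 allows up to 3 reads, which is 0.0745 to 0.0901 CPM per miR-155OE library and 0.0573 to 0.0888 CPM per CTRL library, and over a whole group 0.0206 CPM in miR-155OE and 0.0188 CPM in CTRL. No fold change can be given for them. CXCL6 overlaps the pseudogene PPBPP1, and IL6 overlaps STEAP1B and an antisense gene on the other strand. STEAP1B had 46 reads and the others 0. The sources used here give no strand setting for the counts.

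CXCL2 (ENSG00000081041, chr4:74097035-74099293, minus strand, 4 exons) is a neutrophil attractant of the CXCR2 group. It had 1.98, 2.88, 3.60 and 5.31 CPM in miR-155OE replicates 1 to 4, against 1.75, 1.85, 3.04 and 3.17 CPM in CTRL replicates 1 to 4. The groups overlapped, yet in each of the 4 same-numbered pairs the miR-155OE library was the higher. The log2 fold change was 0.48 ± 0.31 (SE, 95% interval −0.20 to 1.16), with an edgeR adjusted p of 0.438. With the replicate number as a block it was 0.46 ± 0.16 (interval 0.11 to 0.81), with an adjusted p of 0.0866, so CXCL2 did not pass the threshold of 0.05 in either fit. The largest same-numbered ratio was 1.67 for pair 4 (counting interval 1.33 to 2.11).

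CXCL1 (ENSG00000163739, chr4:73869393-73871242, plus strand, 4 exons), named GRO-alpha in older work, attracts neutrophils through CXCR2. It had 2.46, 2.02, 1.89 and 3.26 CPM in miR-155OE replicates 1 to 4, against 1.92, 2.03, 1.49 and 2.04 CPM in CTRL replicates 1 to 4. miR-155OE replicates 1 and 4 lay above every CTRL library, and the other two within the CTRL range. The log2 fold change was 0.37 ± 0.21 (SE, interval −0.10 to 0.84), with an edgeR adjusted p of 0.389.

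CXCL3 (ENSG00000163734, chr4:74036589-74038807, minus strand, 4 exons), another of these near relatives, had 0.841, 0.644, 0.596 and 1.34 CPM in miR-155OE replicates 1 to 4, against 0.592, 0.753, 0.764 and 0.335 CPM in CTRL replicates 1 to 4. Replicate number 4 held both the highest miR-155OE and the lowest CTRL value, a ratio of 3.999 (counting interval 2.14 to 8.03), and pairs 2 and 3 were lower in miR-155OE. The log2 fold change was 0.48 ± 0.35 (SE, interval −0.30 to 1.25), with an edgeR adjusted p of 0.509. Without miR-155OE replicate 4 the log2 fold changes were 0.20 for CXCL2, 0.19 for CXCL1 and 0.18 for CXCL3, so all 3 values rested in good part on that library. CXCL1, CXCL2 and CXCL3 share runs of up to 77 bases (CXCL1 and CXCL2), 97 (CXCL2 and CXCL3) and 55 (CXCL1 and CXCL3) in their longest GENCODE transcripts, so reads in those stretches may have been split or dropped in counting and their single values are uncertain to that extent.

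CXCL8 (ENSG00000169429, chr4:73740506-73743716, plus strand, 4 exons), or interleukin 8, had 0.992, 0.924, 2.33 and 1.72 CPM in miR-155OE replicates 1 to 4, against 1.24, 0.637, 2.27 and 1.99 CPM in CTRL replicates 1 to 4. The groups covered almost the same range, and miR-155OE was the higher library in 2 of the 4 pairs. The log2 fold change was −0.05 ± 0.41 (SE), with a wide interval of −0.95 to 0.85 and an edgeR adjusted p of 0.964. With the replicate number as a block the interval narrowed to −0.49 to 0.46 around −0.01 (adjusted p = 0.974), which leaves room for a change of up to about that size in either direction.

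CSF3 (ENSG00000108342, chr17:40015361-40017813, plus strand, 4 exons) had the largest fitted difference of the 5 tested genes. It had 9, 6, 1 and 11 reads (0.270, 0.168, 0.0248 and 0.301 CPM) in miR-155OE replicates 1 to 4, against 8, 15, 20 and 26 reads (0.237, 0.434, 0.382 and 0.671 CPM) in CTRL replicates 1 to 4. CTRL replicates 2 to 4 lay above every miR-155OE library, while CTRL replicate 1 lay within the miR-155OE range. The log2 fold change was −1.19 ± 0.54 (SE, interval −2.40 to 0.02), with an edgeR adjusted p of 0.266, and with the replicate number as a block −1.25 ± 0.51 (adjusted p = 0.145). The library with 1 read weighed on it: without miR-155OE replicate 3 the log2 fold change was −0.80.

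CCL20 (ENSG00000115009, chr2:227805739-227817564, plus strand, 4 exons) had 1, 6, 8 and 35 reads (0.0300, 0.168, 0.199 and 0.958 CPM) in miR-155OE replicates 1 to 4, against 3, 2, 6 and 14 reads (0.0888, 0.0579, 0.115 and 0.361 CPM) in CTRL replicates 1 to 4. Number 4 was the highest library of both groups, and the pair ratio there was 2.65 (counting interval 1.39 to 5.34). In a fit without the filter on low counts its log2 fold change was 1.10 ± 0.72 (SE, edgeR adjusted p = 0.567). CSF2 (ENSG00000164400, chr5:132073790-132076170, plus strand, 4 exons) had 2, 4, 3 and 4 reads in miR-155OE replicates 1 to 4, against 0, 3, 6 and 6 reads in CTRL replicates 1 to 4. Both groups averaged 0.0890 CPM, with an SD of 0.0258 in miR-155OE and 0.0656 in CTRL, and its log2 fold change in the fit without the filter was −0.04 ± 0.78 (SE, adjusted p = 0.987).

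**Figure D3:**
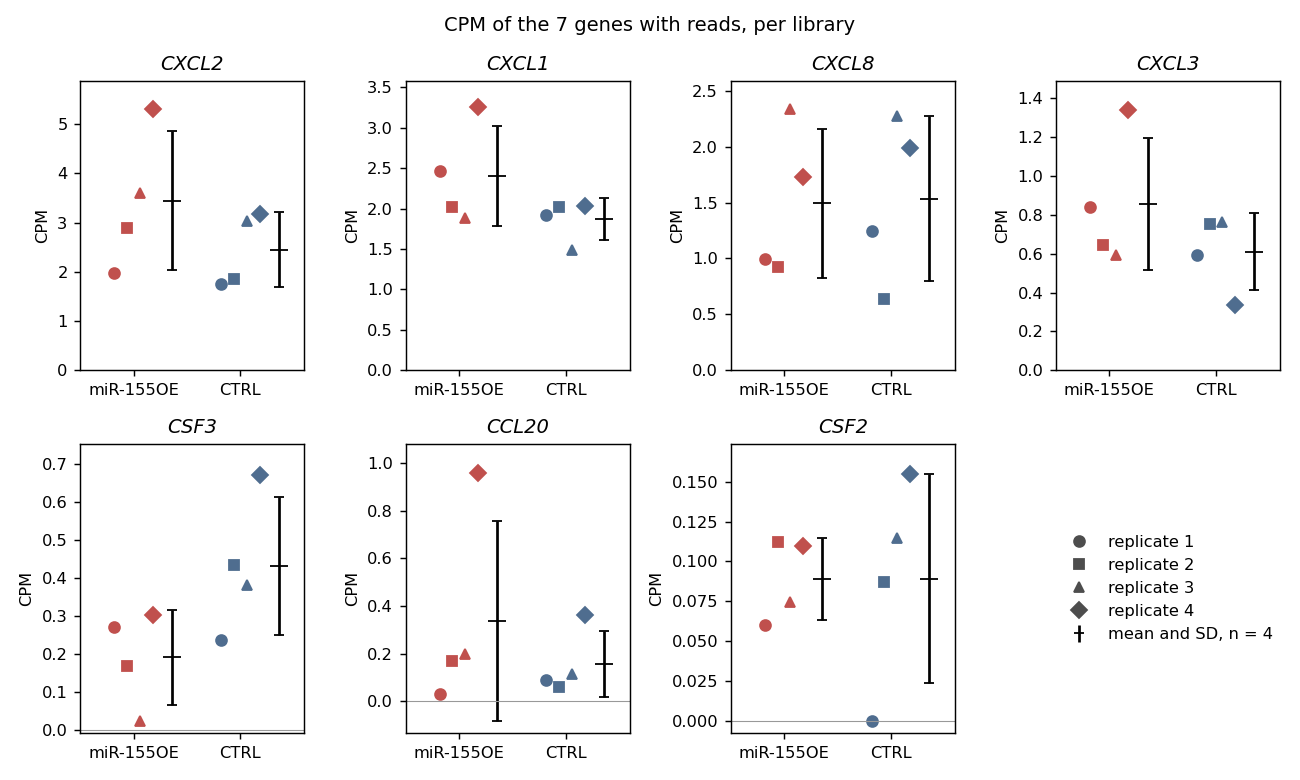
CPM of the 7 genes with reads in each miR-155OE library (red) and CTRL library (blue), with the mean and SD of each group (n = 4) and 1 marker shape per replicate number. The groups overlap in all 7 panels, and replicate 4 is the highest miR-155OE library for CXCL2, CXCL1, CXCL3, CSF3 and CCL20.

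Of the 5 tested genes, 0 were called between miR-155OE and CTRL by edgeR on group alone, where 3.22% of all tested genes were called, and 0 had an unadjusted p under 0.05, where 19.3% of all had. With the replicate number as a block 0 of 5 were called, against 12.6% of all, and CXCL2 and CSF3 had an unadjusted p under 0.05 (28.3% of all). DESeq2 called 0 of 5, against 8.08% of all. None of the 5 had groups that did not overlap, against 11.4% of all. The median log2 fold change of the 5 was 0.37, against −0.01 over all tested genes, and 3 of the 5 were above 0, against 48.7% of all. The authors' deposited table lists 7 of the 10 genes and calls none: its log2 fold changes are −1.19 for CSF3 (adjusted p = 0.282), 0.37 for CXCL1 (0.418), 0.49 for CXCL2 (0.418), 0.48 for CXCL3 (0.578), −0.04 for CXCL8 (0.977), 1.13 for CCL20 (0.568) and −0.02 for CSF2 (1).

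**Figure D4:**
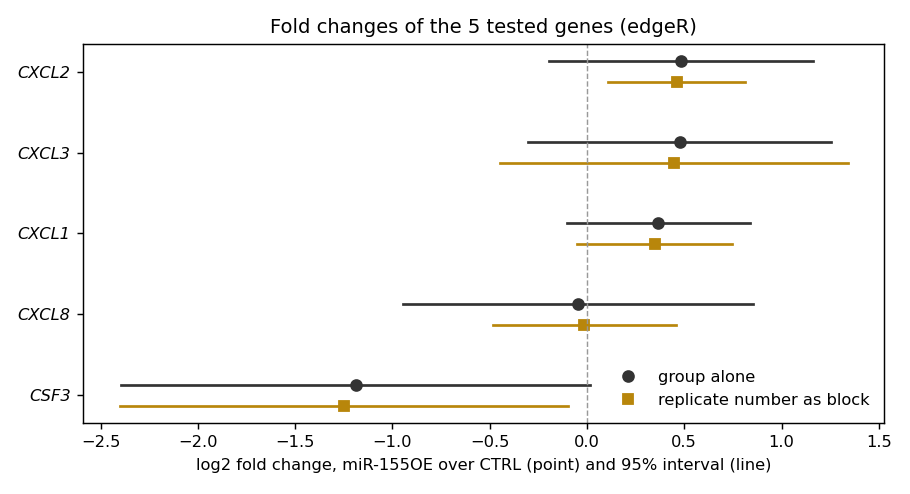
Log2 fold change (miR-155OE over CTRL) of the 5 tested genes with 95% intervals, fitted by edgeR on group alone (circles) and with the replicate number as a block (squares). All 5 intervals on group alone span 0; with the block those of CXCL2 (0.11 to 0.81) and CSF3 (−2.40 to −0.10) do not, though neither gene passed after adjustment over all tested genes.

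CXCL8 and CXCL2 differed between replicate numbers. CXCL8 averaged 1.12, 0.780, 2.30 and 1.86 CPM over the same-numbered libraries 1 to 4, and both groups had their pair of high values at numbers 3 and 4. CXCL2 averaged 1.86, 2.37, 3.32 and 4.24 CPM over numbers 1 to 4. In a test of the 3 replicate number terms, added after the values were seen, CXCL8 (edgeR adjusted p = 0.0460) and CXCL2 (0.0482) passed, 2 of the 5 tested genes where 5.15% of all tested genes did. CXCL1 (0.378), CSF3 (0.553) and CXCL3 (0.991) did not. With no filter on low counts, where 10% of all genes passed, CCL20 also did (0.00301), beside CXCL8 (3.14e-05) and CXCL2 (3.89e-05). The reads of CXCL8 and CXCL2 were the same with and without the filter, so their smaller values come from the fit and are not further evidence. CCL20 was tested between numbers in this fit alone, so its call carries the same limit and is uncertain. Both groups had their highest CCL20 reads at number 4 (35 in miR-155OE and 14 in CTRL), and no fit between numbers with libraries left out covered CCL20.

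The replicate number, with 3 degrees of freedom, took 94.6% of the sum of squares of CXCL8 on the log2(CPM + 0.5) scale, and the group, with 1, took 0.00637%. For CXCL2 the number took 74.3% and the group 19.7%, while for CXCL3 the number took 0.831% and 78.4% was residual. It took 77.8% for CCL20, 73.3% for CSF2, 52.4% for CXCL1 and 33.4% for CSF3. CSF2 had 28 reads in all and was not called between numbers in the fit without the filter (edgeR adjusted p = 0.969). A large share alone therefore does not show a difference between numbers. The calls of CXCL8 and CXCL2 were both close to the threshold. Leaving out 1 library or 1 pair, in 12 ways, ended that of CXCL8 in 11 (edgeR adjusted p up to 0.147). It was kept at 0.0489 without CTRL replicate 3. The call of CXCL2 ended in 9 (up to 0.249) and was kept at 0.0180 to 0.0295 without either or both libraries numbered 3. Across these fits, 0.482% (without pair 4) to 10.4% (without CTRL replicate 3) of all tested genes were called. The share of reads from mitochondrially encoded genes also moved with the number: it was 1.01, 1.31, 1.94 and 2.92% in miR-155OE replicates 1 to 4, against 1.23, 1.64, 2.78 and 2.50% in CTRL replicates 1 to 4. The markers KRT14 (adjusted p = 0.0447) and COL1A1 (0.0474) differed between numbers as well, and KRT14 had 9526, 7867, 7160 and 5770 CPM in miR-155OE replicates 1 to 4, against 8971, 9189, 6809 and 6382 CPM in CTRL replicates 1 to 4. The part of either measure in the difference of CXCL8 and CXCL2 was not tested. Within groups the reads of CXCL2 and CXCL8 spread more than counting alone gives, as did those of CCL20, CXCL3, CSF3 and, in miR-155OE, CXCL1. The chi-square statistic divided by its degrees of freedom was 20.1 in miR-155OE and 8.67 in CTRL for CXCL2, and 10.9 in miR-155OE and 13.4 in CTRL for CXCL8. In the same order of groups it was 18.5 and 4.69 for CCL20, and 5.98 and 1.71 for CXCL1. For CXCL3 it was 5.07 and 2.61, for CSF3 3.20 and 2.80, and for CSF2 0.264 and 1.65.

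Some genes of the NF-kB pathway and some mRNA decay regulators also differed between replicate numbers, where 5.15% of all tested genes did. Of 19 tested NF-kB pathway genes, 4 did: NFKBIZ, an inducible coactivator of NF-kB (edgeR adjusted p = 0.00622), TNFAIP3, the inhibitor A20 (0.00292), NFKBIA, the inhibitor IkB-alpha (0.0347), and BCL3, a nuclear IkB protein (0.0350). NFKBIZ had 44.3, 44.8, 52.4 and 81.6 CPM in miR-155OE replicates 1 to 4, against 36.3, 39.5, 55.6 and 66.2 CPM in CTRL replicates 1 to 4. Of 11 mRNA decay regulators, 4 did: ZC3H12A (Regnase-1, 0.00282), ZFP36 (tristetraprolin, 0.0106), ZFP36L1 (0.0203) and RC3H2 (0.0250). ZFP36, which binds AU-rich elements, had 362, 370, 545 and 569 CPM in miR-155OE replicates 1 to 4, against 393, 378, 537 and 523 CPM in CTRL replicates 1 to 4. For NFKBIZ and ZFP36 libraries 3 and 4 were the higher ones in each group, as for CXCL8, and so they were for TNFAIP3, NFKBIA, BCL3 and RC3H2. For ZC3H12A and ZFP36L1 libraries 2 and 4 were the higher ones in each group instead. ZC3H12A had 44.9, 56.6, 43.1 and 93.4 CPM in miR-155OE replicates 1 to 4, against 37.1, 52.5, 44.7 and 75.7 CPM in CTRL replicates 1 to 4. Of 11 JAK-STAT genes 0 differed between numbers.

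**Figure D5:**
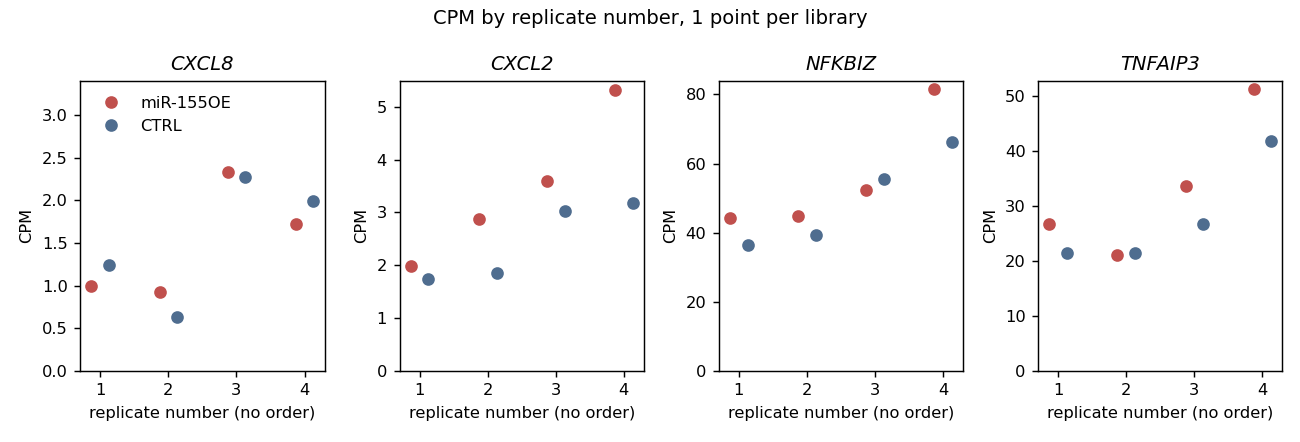
CPM of CXCL8, CXCL2, NFKBIZ and TNFAIP3 against the replicate number, with 1 point per miR-155OE library (red) and CTRL library (blue); the numbers have no order. In all 4 panels the highest libraries of both groups carry number 3 or 4.

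By profile over the 8 libraries, among 12563 genes averaging at least 1 CPM, the genes most like CXCL2 were SERPINB3, PCP4L1 and NFKBIZ, with root mean square differences of 0.14, 0.16 and 0.18 on the centred log2(CPM + 0.5) scale. Those most like CXCL8 were GK, HAUS6 and WSB1, at 0.18, 0.20 and 0.20. Those most like CXCL1 were RNF208, PIGC and REEP6, at 0.08, 0.10 and 0.10. CXCL1 ranked 3408 in likeness to CXCL2, and CXCL2 ranked 916 in likeness to CXCL8, so these neighbouring chemokine genes were not each other's nearest profiles.

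Of the cytokines that induce these chemokines, and their receptors, 24 of 29 were tested: 1 rose, 2 fell and 21 did not pass on group alone, where 2.17% of all tested genes rose and 1.05% fell. IL1B, a main inducer of CXCL8, fell to 136 ± 18.9 CPM in miR-155OE, against 253 ± 51.7 CPM in CTRL (SD, n = 4 each). Its log2 fold change was −0.90 ± 0.14 (SE), and with an edgeR adjusted p of 0.0118 it kept its call without any 1 of the 8 libraries. IL18 fell to 13.9 ± 2.18 CPM in miR-155OE, against 22.2 ± 4.46 CPM in CTRL (log2 fold change −0.67, adjusted p = 0.0440). IL36RN, the antagonist of the IL-36 receptor, rose to 58.0 ± 19.1 CPM in miR-155OE, against 23.8 ± 7.47 CPM in CTRL (log2 fold change 1.29, adjusted p = 0.0340). IL18 lost its call in 6 of the 8 fits without 1 library (adjusted p up to 0.119) and IL36RN in 7 (up to 0.0852).

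With the replicate number as a block, 3 of the 24 rose and 4 fell, against 7.43% and 5.17% of all tested genes. Beside those already named, IL36G (log2 fold change 1.45, edgeR adjusted p = 0.00497) and IL1R1, the signalling receptor of IL-1 (0.67, adjusted p = 0.00355), rose, and IL1A (−0.63, adjusted p = 0.0159) and the antagonist IL1RN (−0.62, adjusted p = 0.0398) fell. IL1A lost that call without 1 of the 4 pairs and IL1RN without 3 (adjusted p up to 0.190). IL-1 ligands were thus lower in miR-155OE while the CXC chemokines were not called in either direction; the difference between these changes was not tested.

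Receptors for the 10 signals were mostly at or near the floor, and 4 of 9 were tested. Both chains for IL6 lay well above the floor. IL6R had 21.5 ± 4.34 CPM in miR-155OE, against 20.7 ± 4.08 CPM in CTRL (edgeR adjusted p = 0.903). IL6ST had 66.4 ± 1.43 CPM in miR-155OE, against 69.2 ± 2.28 CPM in CTRL (0.605). On group alone 0 of the 4 passed edgeR (3.22% of all tested genes), with 1 at an unadjusted p under 0.05 (19.3% of all). With the block (12.6% of all), CSF2RB, the shared signalling chain for GM-CSF, IL-3 and IL-5, rose (39.3 ± 9.87 CPM in miR-155OE, against 30.5 ± 6.50 CPM in CTRL; log2 fold change 0.36, edgeR adjusted p = 0.0255), a call lost without 2 of the 4 pairs (up to 0.0880). Its ligand-specific partner CSF2RA had 33 reads over all 8 libraries, too few to be tested. These went the other way, at 0.0418 ± 0.0365 CPM in miR-155OE, against 0.173 ± 0.0629 CPM in CTRL. CXCR2, named after its values were seen, had 1.23 ± 0.114 CPM in miR-155OE, against 0.675 ± 0.371 CPM in CTRL, and did not pass (adjusted p = 0.201, with the block 0.0858). CSF3R, CCR6 and ACKR1 had 0 reads, and CXCR1 had 39 over all 8 libraries.

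Of the 22 other chemokines 5 were tested and 0 passed edgeR on group alone (3.22% of all tested genes), with 3 at an unadjusted p under 0.05 (19.3% of all). With the block 2 rose, where 7.43% of all did: CXCL14, a chemokine made constitutively by squamous epithelia (51.5 ± 20.6 CPM in miR-155OE, against 23.5 ± 12.9 CPM in CTRL; log2 fold change 1.17, edgeR adjusted p = 0.0194), and CCL24, eotaxin-2, an attractant of eosinophils through CCR3 (4.31 ± 1.39 CPM in miR-155OE, against 2.59 ± 1.25 CPM in CTRL; 0.78, adjusted p = 0.00862). CCL24 kept that call without any 1 pair, and CXCL14 lost it without 2 of the 4 (up to 0.0956). Of 13 other growth factor cytokines 8 were tested and 0 passed on group alone, with 3 at an unadjusted p under 0.05 (3.22% and 19.3% of all). KITLG, the ligand of the receptor KIT on mast cells, fell with the block (18.3 ± 3.52 CPM in miR-155OE, against 26.5 ± 2.78 CPM in CTRL; −0.55, adjusted p = 0.0048).

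The signalling and decay machinery was read against all tested genes. On group alone 0 of 19 NF-kB genes, 0 of 11 mRNA decay regulators and 0 of 11 JAK-STAT genes passed edgeR, with 2, 2 and 2 at an unadjusted p under 0.05 (3.22% and 19.3% of all tested genes). With the block, which called 12.6% of all, 2 of the 19, 1 of the 11 and 1 of the 11 passed. NFKB1, the p105 and p50 subunit of NF-kB (log2 fold change 0.27, adjusted p = 0.0271), ARID5A, an RNA-binding protein that stabilises IL6 mRNA (0.36, adjusted p = 0.0392), and SOCS3, the feedback inhibitor of IL-6 and G-CSF signalling (0.38, adjusted p = 0.0407), rose, and IKBKB, the kinase IKK-beta (−0.46, adjusted p = 0.0295), fell. NFKB1, ARID5A and SOCS3 each lost the call without any 1 of the 4 pairs, and IKBKB without 3.

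Marker genes of other cell types were read beside these values. On group alone 0 of 4 tested leukocyte markers, 0 of 1 fibroblast and 0 of 1 endothelial marker passed edgeR (3.22% of all tested genes), with 3, 0 and 0 at an unadjusted p under 0.05 (19.3% of all). With the block (12.6% of all) CD14 (log2 fold change 0.44, adjusted p = 0.0239), FCGR3B (2.35, 0.0385) and COL1A1 (0.40, 0.0451) rose, and the mucosal keratins KRT4 and KRT13 fell, 2 of 9 squamous markers. CD14 lost its call without 3 of the 4 pairs, COL1A1 and KRT13 without 2 of the 4, and FCGR3B in 2 of the 3 such fits that gave a value, while KRT4 kept it. The 10 leukocyte markers summed to 9.85 to 17.2 CPM in miR-155OE and 8.83 to 10.7 CPM in CTRL, and the 6 fibroblast markers to 98.1 to 221 CPM in miR-155OE and 92.8 to 145 CPM in CTRL, with COL1A2, COL3A1, DCN and LUM at 0 reads. The part of such cells in the values above was not tested.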

How the data were processed

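The deposited raw counts are whole reads per Ensembl gene, with gene name, position and length beside them, per the file headers. Per the submitters' processing notes the tools were featureCounts 1.5.0-p3, HISAT2 2.0.5 and DESeq2, on GRCh38; the annotation release, strand setting and options are not given in the sources used here. The authors' deposited table gives a log2 fold change, a p-value and an adjusted p-value per gene, and was read only for the 10 genes.

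Raw counts of 4 miR-155OE and 4 CTRL libraries were compared by the quasi-likelihood F test of edgeR 4.0.16 in R 4.3.3 on group alone, after filterByExpr and TMM scaling, with Benjamini-Hochberg adjustment over 15135 genes at 0.05. CPM uses TMM-scaled library sizes. Each SE was derived from the fold change and its F statistic, so intervals restate the test. Counting intervals are exact, at 95%, and with the floor of 3 reads cover counting error only; libraries held 33.4 to 52.7 M (mega) reads. The methods were tested on simulated data. Alternatives were DESeq2 1.42.0, DESeq2 size factors, other low-count filters, the replicate number as a block and leaving out libraries.

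Deviations of same-numbered libraries from their group means correlated at 0.584, 0.502, 0.186 and 0.611 across 10291 genes, which are not independent of each other. All exceed 0.1, and the numbers were treated as pairs, although miR-155OE replicate 3 correlated more with CTRL replicate 4 (0.405) than with its own number, and CTRL replicate 3 more with miR-155OE replicate 4 (0.209). The 3′ UTRs came from GENCODE release 29 on GRCh38, promoters and the microRNA from RefSeq (GRCh38.p14). Members, lists and tests were chosen with earlier results of these data known. Named were all 10 genes, the called genes of each list, the 3 nearest profiles of each tested gene averaging at least 1 CPM, and tested genes within 300 kb of the CXCL cluster. Further names, such as receptors with few reads and genes that differed between numbers, were chosen after their values were seen.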

Additional observations from a re-analysis of the deposited data

How the results depend on the processing

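The number of the 10 genes called was 0 under every alternative run (DESeq2, DESeq2 size factors in edgeR, both other filters, the replicate block, each library or pair left out). Over all genes, 488 were called on group alone, 1908 with the replicate block, 1223 by DESeq2 and 927 with no low-count filter; without 1 library the count ranged from 125 to 1274, and with the replicate block without 1 pair from 623 to 2059 (1389 without pair 3, 971 without pair 4). CXCL1, CXCL2 and CSF3 kept their direction in all alternatives that gave a value; CSF3 gave none with the replicate block without pair 4, where it had too few reads. CXCL3 turned to −0.034 (log2) with the replicate block without pair 4. CXCL8, near 0, ranged from −0.35 to 0.21 when 1 library was left out: it turned to 0.10 and 0.13 without miR-155OE replicates 1 and 2, and to 0.21 and 0.090 without CTRL replicates 3 and 4. With the replicate block it turned to 0.082 without pair 1 and 0.063 without pair 4; the cause was not tested. Under alternatives chosen after seeing the data, the adjusted p between numbers was 0.0457 for CXCL8 and 0.0487 for CXCL2 with DESeq2 size factors. In the same order it was 0.0145 and 0.0148 by the DESeq2 likelihood ratio test, which called 10.4% of all genes given an adjusted p, against 5.15% in the main fit. With at least 10 reads in 4 libraries it was 0.0460 and 0.0489. With no low-count filter it was 3.14e-05 and 3.89e-05 on the same reads, so these smaller values come from the fit. Depth limits CSF3, CCL20 and CSF2, with 1 to 35 reads in most libraries.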

Other observations

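Beside the CXC chemokines on chromosome 4 lie genes of a different family that the same cells expressed far more, per kb of gene length. EREG, epiregulin, a ligand of the EGF receptor, averaged 47.8 CPM per kb in miR-155OE and 39.0 CPM per kb in CTRL, and EPGN, epigen, of the same family, 10.8 CPM per kb in miR-155OE and 10.7 CPM per kb in CTRL. EREG had 273 ± 85.5 CPM in miR-155OE, against 223 ± 78.7 CPM in CTRL (SD, n = 4 each). The difference, 0.29 on the log2 scale, did not pass on group alone (edgeR adjusted p = 0.612) and passed with the replicate number as a block (0.31, adjusted p = 0.0338), a call lost without 3 of the 4 pairs (up to 0.173). EREG (adjusted p = 0.00463) and EPGN (0.0406) also differed between replicate numbers, as CXCL8 and CXCL2 did, and the neighbours RASSF6 (0.0906) and MTHFD2L (0.276) did not pass. Of the 26 annotated genes within 300 kb of the cluster, 15 are protein-coding and 8 were tested.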
